A study of Mus musculus with 3 samples.

Results

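Collagens, laminins and the proteins that join them into basement membranes were described as a gene family in mouse granulosa cells around ovulation. Its members were taken by gene symbol: every collagen chain gene (44), every laminin chain gene (11) and 6 further genes, the nidogens Nid1 and Nid2, perlecan (Hspg2), agrin (Agrn), Sparc and fibronectin (Fn1). That gave 61 of the 24225 genes measured, all of them protein coding. Granulosa cells had been released by puncture of follicles from ovaries of wild-type C57BL/6 females at postnatal day 21 to 28. Every animal had received 4 IU of equine chorionic gonadotropin (eCG), which drives follicle growth. The groups were cells taken before the ovulatory dose of 5 IU of human chorionic gonadotropin (hCG), called 0 h, and cells taken 4 h and 12 h after it. RNA was isolated from 3 mice at each time, and 1 library stands for each time; whether the RNA was pooled is not stated. There are therefore no replicates, no test was run, and every difference is one between 2 libraries.

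A basement membrane is a sheet of matrix on which epithelial cells rest. Laminin trimers, each of an alpha, a beta and a gamma chain, form one network, type IV collagen trimers form another, and nidogens and perlecan link them. In the ovarian follicle such a sheet surrounds the granulosa cells and keeps blood vessels out until ovulation, when it is broken down and vessels grow in. Granulosa cells also lay down patches of the same material between themselves, a structure described in cattle follicles. Fibrillar collagens, which bear tension in loose tissue, are made mainly by the theca and stroma around the follicle.

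In these libraries the genes of the type IV collagen pair Col4a1 and Col4a2 were more than 3 times as high at 4 h as at 0 h and were nearly as high at 12 h. The proteoglycan collagen Col18a1 was about 4 times as high at 4 h, and perlecan and fibronectin were just over 2 times as high. Most laminin chains and the abundant fibrillar collagens Col1a1, Col1a2 and Col3a1 differed by less than 2-fold. The fibrillar collagen Col24a1 was under 1 FPKM at 0 h and at 12 h and was at 14.0 FPKM at 4 h. The laminin chain Lama4 was the 1 member called lower at 12 h than at 0 h by the 2-fold rule given below. Levels are in FPKM, that is sequenced fragments counted per kilobase of a transcript and scaled to the depth of the library.

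Promoter sequence is shown for the genes on which these differences turn. The windows come from RefSeq (GRCm38.p6) and run from 250 bases before the annotated start of transcription to 50 bases after it. Of the 61 genes 44 had at least 1 window in that table, with 49 windows in all. Capitals mark the GC box GGGCGG, the CCAAT box CCAAT, the TATA box TATAAA and the cAMP response element TGACGTCA, each searched on both strands. Where 2 of these lie side by side they may share bases.

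Col4a1 and Col4a2 stand head to head on chromosome 8 and are shown because they moved together. The Col4a1 window is chr8:11312777-11313076 on the minus strand, and the Col4a2 window is chr8:11312555-11312854 on the plus strand. The start sites lie 21 bases apart, and the windows share 78 bases, which read as the reverse complement of each other.
Col4a1: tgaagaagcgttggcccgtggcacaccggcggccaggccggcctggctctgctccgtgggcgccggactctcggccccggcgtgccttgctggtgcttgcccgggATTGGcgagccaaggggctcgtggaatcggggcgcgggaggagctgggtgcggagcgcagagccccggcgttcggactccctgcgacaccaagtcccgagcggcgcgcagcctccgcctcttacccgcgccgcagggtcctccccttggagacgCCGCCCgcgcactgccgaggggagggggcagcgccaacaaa
Col4a2: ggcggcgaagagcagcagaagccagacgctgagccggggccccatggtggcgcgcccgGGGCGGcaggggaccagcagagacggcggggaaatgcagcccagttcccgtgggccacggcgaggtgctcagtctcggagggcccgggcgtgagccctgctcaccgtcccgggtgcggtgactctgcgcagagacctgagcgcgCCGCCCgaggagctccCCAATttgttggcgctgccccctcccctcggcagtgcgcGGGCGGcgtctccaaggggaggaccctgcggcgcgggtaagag
Col18a1 and Hspg2, which code for basement membrane proteoglycans, are shown beside them. The Col18a1 window is chr10:77166481-77166780 on the minus strand, upstream of the isoform that held nearly all of the gene's FPKM, and the Hspg2 window is chr4:137468553-137468852 on the plus strand.
Col18a1: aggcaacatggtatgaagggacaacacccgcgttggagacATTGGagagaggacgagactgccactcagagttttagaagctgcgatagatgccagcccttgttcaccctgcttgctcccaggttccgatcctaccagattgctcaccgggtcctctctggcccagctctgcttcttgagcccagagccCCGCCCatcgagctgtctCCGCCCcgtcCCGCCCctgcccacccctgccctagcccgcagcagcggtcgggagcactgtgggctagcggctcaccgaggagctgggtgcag
Hspg2: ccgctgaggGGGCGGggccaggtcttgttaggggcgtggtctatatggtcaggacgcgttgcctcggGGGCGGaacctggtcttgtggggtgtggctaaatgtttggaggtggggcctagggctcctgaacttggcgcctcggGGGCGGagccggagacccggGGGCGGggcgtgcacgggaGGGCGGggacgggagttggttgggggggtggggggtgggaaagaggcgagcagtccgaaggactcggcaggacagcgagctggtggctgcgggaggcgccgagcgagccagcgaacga
Col24a1 is shown because it peaked at 4 h. Its window is chr3:145292222-145292521 on the plus strand.
Col24a1: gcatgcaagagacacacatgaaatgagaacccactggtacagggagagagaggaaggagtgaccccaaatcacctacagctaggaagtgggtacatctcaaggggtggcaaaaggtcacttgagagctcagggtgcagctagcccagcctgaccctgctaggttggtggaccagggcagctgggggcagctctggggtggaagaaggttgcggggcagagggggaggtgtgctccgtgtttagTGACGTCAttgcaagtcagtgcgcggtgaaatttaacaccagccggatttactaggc

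The GC box occurred 1 time in the Col4a1 window, 3 times each in those of Col4a2 and Col18a1, and 5 times in that of Hspg2. The GC box of Col4a1 and the last of those of Col4a2 are the same bases, in the stretch the windows share. The GC box was present in 30 of the 49 windows of the family (61.2%), against 35.7% of all 32851 windows in the table. These shares were not adjusted for base composition. The windows shown held from 56.3% (Col24a1) to 74% (Col4a1) G and C, and the median of all windows was 52.7%. The CCAAT box was present in 15 of the 49 (30.6%), against 37.4% of all windows, and the TATA box in 5 (10.2%), against 13.6%. The cAMP response element was present in 1 of the 49 (2.04%), against 1.79% of all windows. That 1 window was the one of Col24a1, where the element begins 7 bases before the start site. This element was added to the search after values were seen. These are matches of letters and were not tested as sites of binding.

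At least 1 FPKM in 1 library was recorded for 42 of the 61 genes, and at least 5 FPKM for 30. The counts were 37 genes with 1 FPKM or more at 0 h, 40 at 4 h and 37 at 12 h. Bounds given beside a level are the deposited ones for genes with 1 isoform. For genes with several isoforms the bounds were combined from the deposited bounds of the isoforms. They describe the estimate within a library and not the spread between mice. The log2 fold of a comparison is log2 of (later FPKM + 1) over (earlier FPKM + 1), a scale that understates the change of low genes. A gene is called higher or lower where that fold is at least 2 and 1 of the libraries compared has at least 1 FPKM. The comparisons of 4 h and 12 h with 0 h share the 0 h library.

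**Figure D1:**
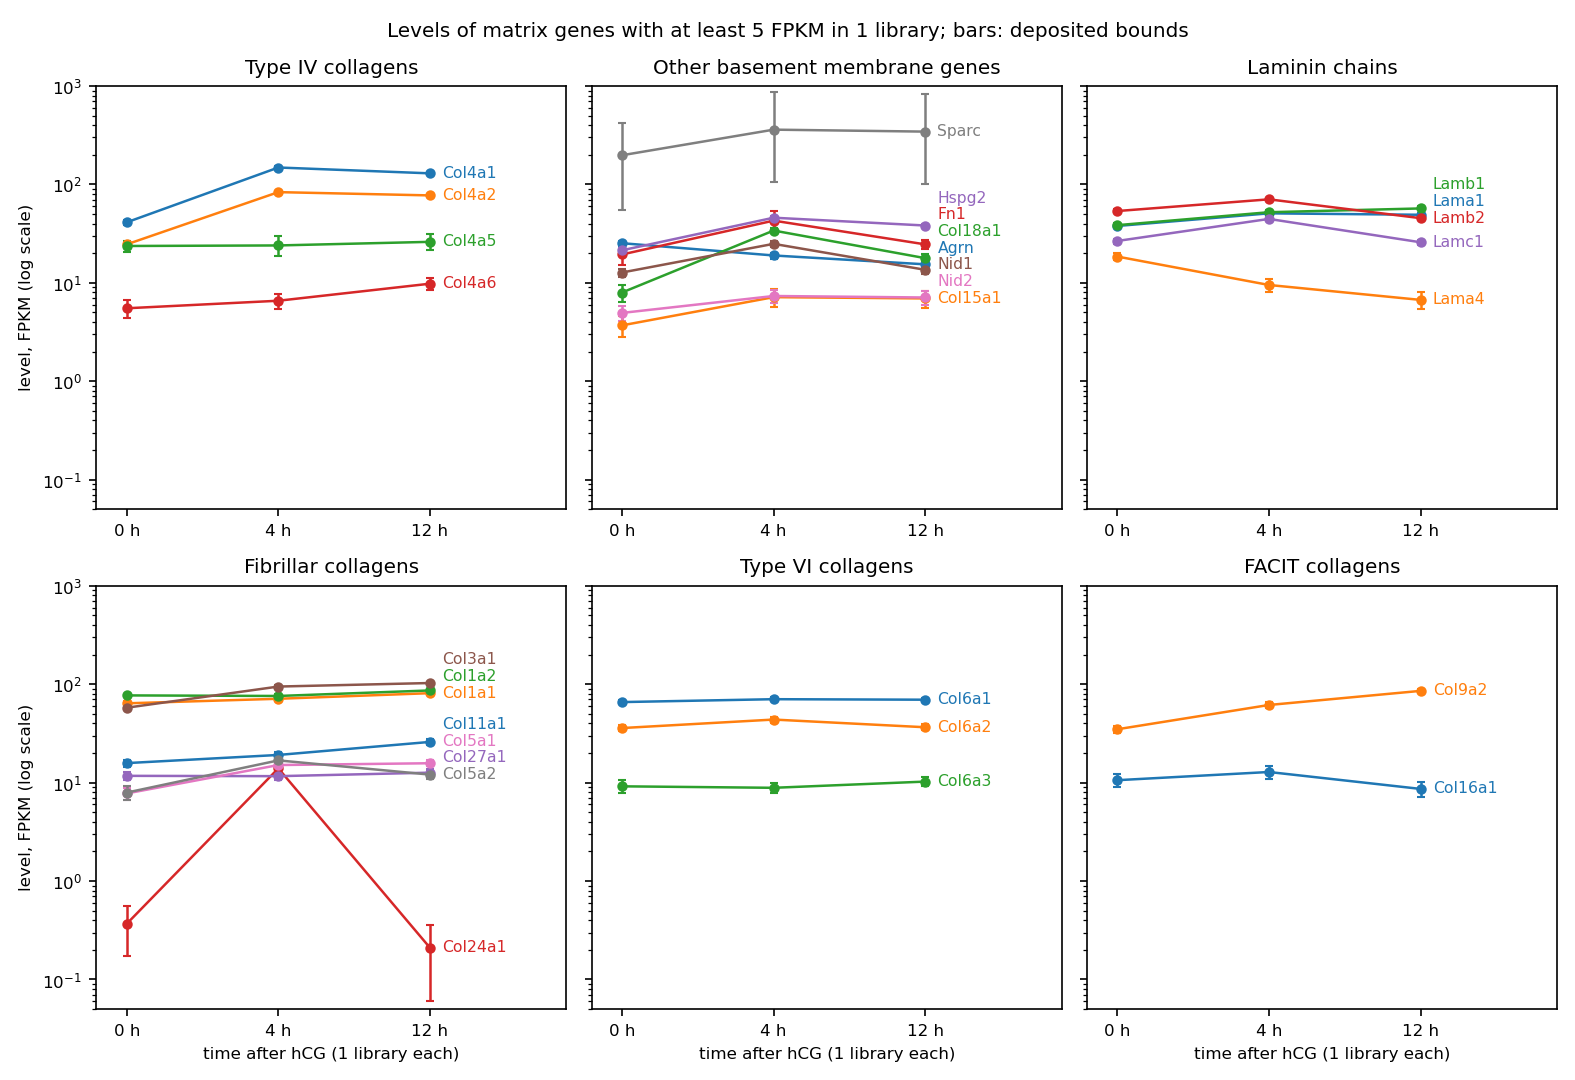
Levels in FPKM (log scale) at 0 h, 4 h and 12 h after hCG, by class of protein. Shown are the 30 genes with at least 5 FPKM in 1 library. Points are single libraries and bars the deposited bounds, combined over isoforms for genes with several. Col4a1 and Col4a2 stand higher at 4 h and 12 h than at 0 h, Col24a1 is high at 4 h alone, and the type VI collagens and Col1a1, Col1a2 and Col27a1 run nearly level.

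By the 2-fold rule 7 of the 41 members measured in the comparison of 4 h with 0 h were higher at 4 h (17.1%), against 10.2% of all 13240 genes. None was lower, against 7.03% of all genes. The 7 genes were Col4a1, Col4a2, Col18a1, Col24a1, Col12a1, Hspg2 and Fn1. The median log2 fold was 0.43 over the 41 members and -0.0089 over all genes. A positive value was found for 34 of the 41 (82.9%), against 49.5% of all genes. When the summed FPKM of every library was set equal, which moved the median of all genes to -0.29, the members' median was 0.13. On that equal-sum scale 4 of the 41 members were higher (Col4a1, Col4a2, Col18a1 and Col24a1), against 7.6% of all genes. Lama4 alone was lower, against 13.1% of all genes.

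In the comparison of 12 h with 4 h, 1 of 41 members was higher at 12 h, against 4.83% of all genes, and 2 were lower, against 7.88%. The gene higher at 12 h was Col10a1, and Col24a1 and Col6a4 were lower. The members' median log2 fold was -0.20, but 0.14 on the equal-sum scale and 0.050 when only protein-coding genes were summed. Its sign thus depends on the scale. The median of all genes was 0.0095, 0.37 and 0.27 on these scales, above that of the members on each. In the comparison of 12 h with 0 h, 5 of 40 members were higher at 12 h (12.5%), against 3.16% of all 13026 genes, and 1 was lower (2.50%), against 2.55%. Col4a1, Col4a2, Col18a1, Col9a2 and Col10a1 were higher, and Lama4 was lower. The members' median log2 fold there was 0.35, and that of all genes was -0.015.

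**Figure D2:**
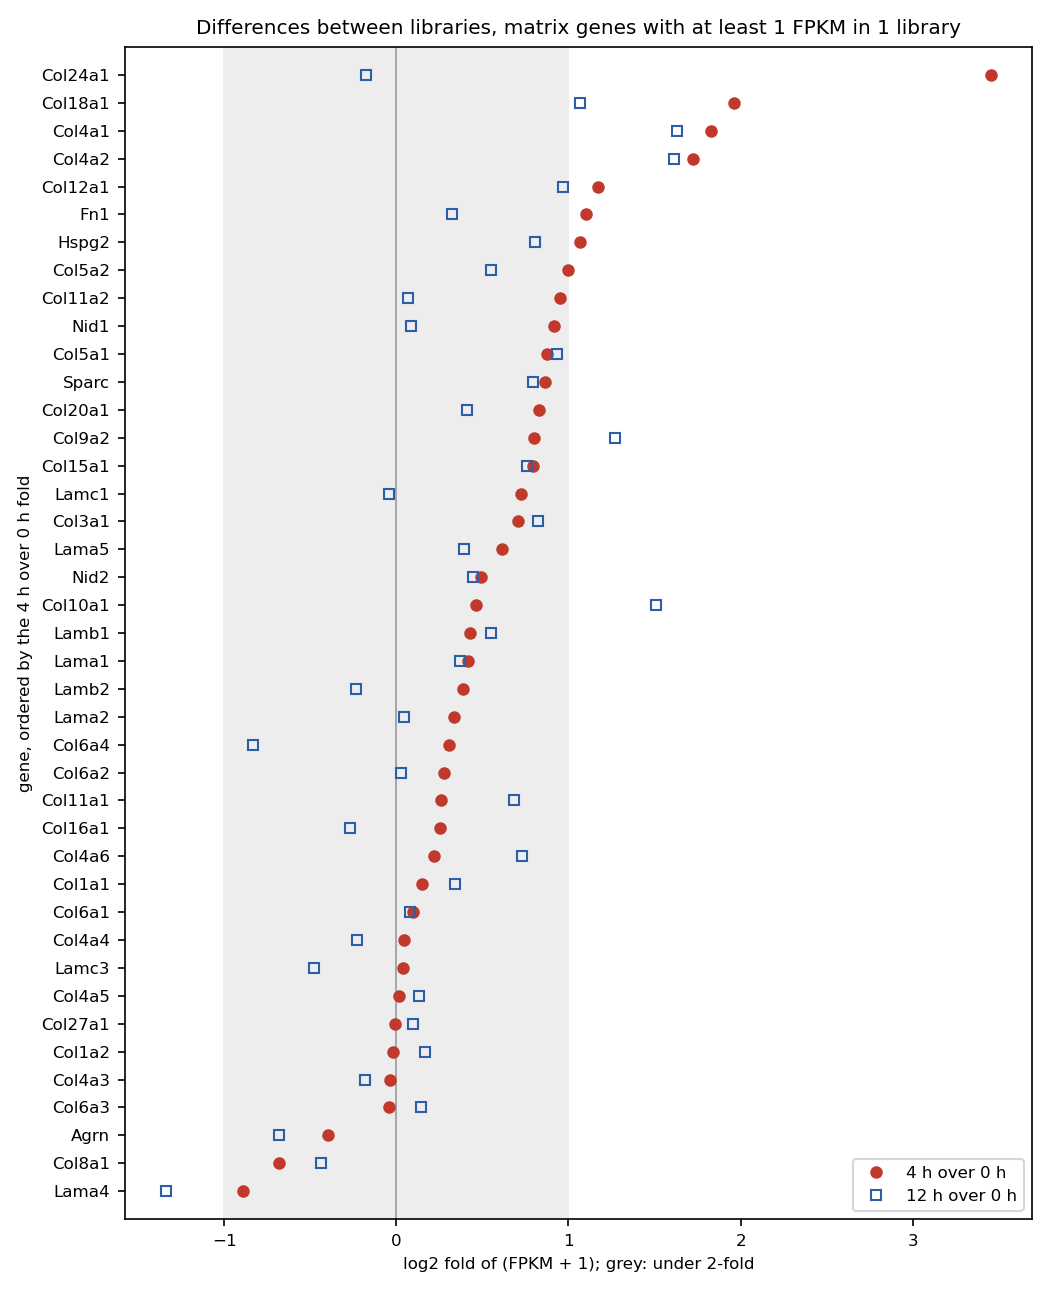
Log2 fold of (FPKM + 1) of 41 of the 42 genes with at least 1 FPKM in 1 library, for 4 h over 0 h (filled circles) and 12 h over 0 h (open squares); the grey band holds differences under 2-fold. Col24a1 has the highest 4 h value (3.45) with a 12 h value of -0.18, Col4a1 and Col4a2 are past 1 in both comparisons, and Lama4 is lowest in both.

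Type IV collagen genes come as head-to-head pairs, and within the family the pairs behaved unequally. Col4a1, which gives the main chain of the sheet, was at 41.2 FPKM at 0 h (bounds 39.1 to 43.3), 149 at 4 h (144 to 153) and 129.5 at 12 h (126 to 133). Its partner Col4a2 was at 24.6 (22.9 to 26.2), 83.5 (80.4 to 86.5) and 77.3 FPKM (74.4 to 80.2). Both were low at 0 h and high in the later libraries, with no overlap of bounds between 0 h and either of them. The log2 folds at 4 h over 0 h were 1.83 for Col4a1 and 1.72 for Col4a2, and at 12 h over 0 h they were 1.63 and 1.61. Among all genes measured in the comparison of 12 h with 0 h, the 2 genes ranked 149 and 155 from the top. The ratio of Col4a1 to Col4a2, whose chains enter a common trimer, was 1.68 at 0 h, 1.78 at 4 h and 1.68 at 12 h. Their annotated gene bodies overlap by 85 bases. The annotated Col4a1 gene reaches to base 11312889, upstream of the start site used for its promoter window (11312826). No source used here says whether the libraries kept the strand.

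The other type IV pairs stayed within 2-fold. Col4a5 and Col4a6, which lie 1274 bases apart on the X chromosome, code for chains of a minor type IV network. Col4a5 was at 23.7, 24.0 and 26.1 FPKM at 0, 4 and 12 h, and its bounds overlapped in all comparisons. Col4a6 was at 5.51, 6.57 and 9.80 FPKM, with the 12 h library highest (log2 fold 0.73 over 0 h). Col4a3 and Col4a4, known from the kidney glomerulus, were between 0.910 and 1.82 FPKM in every library. Together Col4a1 and Col4a2 held 67.2% of the summed type IV FPKM at 0 h, 87.4% at 4 h and 84.4% at 12 h, and Col4a5 held 24.2%, 9.03% and 10.6%. Of the summed FPKM of all 44 collagen genes, Col4a1 and Col4a2 made up 12.6%, 27.5% and 24.8%.

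Col18a1 and Col15a1 code for multiplexin collagens, which carry glycosaminoglycan chains and sit in basement membranes. The tail of the Col18a1 protein is released as endostatin. Col18a1 was at 7.97 FPKM at 0 h (6.39 to 9.56), 34.0 at 4 h (31.7 to 36.2) and 17.8 at 12 h (16.2 to 19.5). The 4 h library was highest, the 12 h library lay between, and no bounds overlapped. The log2 fold was 1.96 at 4 h over 0 h and 1.07 at 12 h over 0 h, and the second of these fell to 0.81 with a pseudocount of 5 FPKM. The isoform that starts at the upstream promoter held 96.8%, 100% and 99.2% of the gene's FPKM. Col15a1 was at 3.69, 7.15 and 6.94 FPKM, and its bounds at 0 h lay below those at 4 h and 12 h, though its folds were under 2.

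Perlecan, the large heparan sulfate proteoglycan encoded by Hspg2, was at 21.4 FPKM at 0 h (20.3 to 22.5), 45.9 at 4 h (44.1 to 47.6) and 38.2 at 12 h (36.7 to 39.8). The 4 h library was highest and the bounds of the 3 libraries lay apart. Its log2 fold at 4 h over 0 h, 1.07, was just past the threshold and became 0.77 on the equal-sum scale, under the threshold. That fold was also under the threshold with protein-coding sums (0.85) and with a pseudocount of 5 FPKM (0.95). Agrn codes for agrin, a proteoglycan best known for clustering acetylcholine receptors at the nerve-muscle junction. It ran the other way, at 25.3, 19.0 and 15.4 FPKM, with bounds apart at each step and a log2 fold of -0.68 at 12 h over 0 h.

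The nidogens tie laminin to type IV collagen. Nid1 was at 12.7 FPKM at 0 h, 24.9 at 4 h and 13.6 at 12 h, so that the 4 h library stood apart from the other libraries, whose bounds overlapped. Its log2 fold at 4 h over 0 h was 0.92. Nid2 was at 4.94, 7.35 and 7.09 FPKM. Sparc, which codes for a collagen-binding protein that acts on the assembly of type IV collagen, had the highest level of the family, at 198, 360.1 and 343.9 FPKM, and ranked 318, 205 and 149 among all genes at 0, 4 and 12 h. Its bounds were wide, 55.2 to 422 at 0 h and 105 to 874 at 4 h. Each of its 2 isoforms had a lower bound of 0 in every library, so the deposited bounds of neither isoform separated the libraries. The gene's bounds were combined from these as if the isoform estimates were independent. How certain the summed level is was therefore not estimated.

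Fibronectin, encoded by Fn1, joins cells to collagen through integrins and occurs as splice forms. The gene was at 19.4 FPKM at 0 h (15.1 to 24.8), 42.9 at 4 h (32.1 to 53.6) and 24.6 at 12 h (22.3 to 27.0), with the 4 h library above the others. The log2 fold at 4 h over 0 h was 1.10, and 0.80 on the equal-sum scale, under the threshold. That fold was also under the threshold with protein-coding sums (0.89) and with a pseudocount of 5 FPKM (0.97). Isoform Fn1-203, which lacks both extra domain exons, was at 9.89, 27.6 and 20.3 FPKM and held 50.9%, 64.5% and 82.7% of the gene. Fn1-214 was at 4.25 FPKM at 0 h (0.684 to 7.81) and at 0.0556 at 4 h (0 to 0.204), and it was listed at 0 at 12 h. Fn1-217 was at 1.70, 9.99 and 0.00573 FPKM, with bounds of 1.71 to 18.3 at 4 h.

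Grouped by exon, Fn1 isoforms that hold the 270-base extra domain A exon (chromosome 1, 71603660 to 71603929, GRCm38) made up 40.3% of the gene's FPKM at 0 h, 12.2% at 4 h and 15.5% at 12 h. In FPKM that was 7.82, 5.24 and 3.81. The extra domain B exon, 273 bases long (71613763 to 71614035) was held by 1 isoform, Fn1-201, at 16.2%, 12.0% and 15.5%. The share with extra domain A was thus highest at 0 h and that with extra domain B was nearly level. These shares rest on the split of fragments among 7 similar isoforms, and the wide bounds of Fn1-214 and Fn1-217 apply to them.

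**Figure D3:**
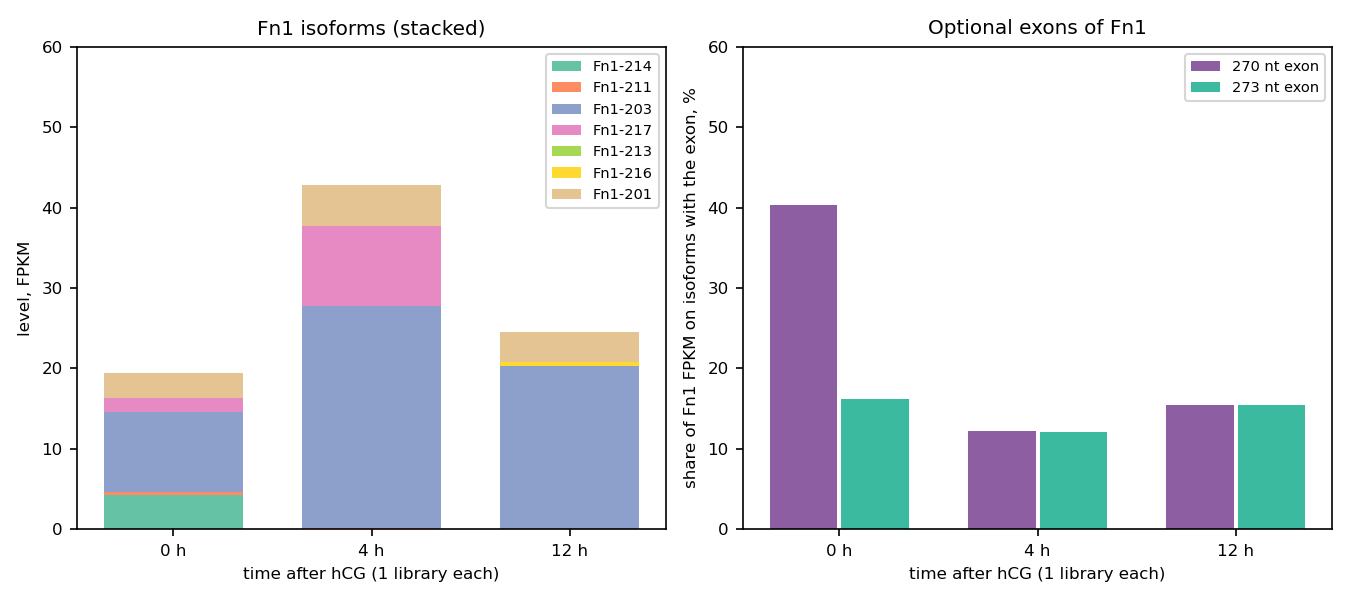
Fn1 isoform levels in FPKM, stacked (left), and the share of Fn1 FPKM on isoforms with the 270-base extra domain A exon or the 273-base extra domain B exon (right), at 0 h, 4 h and 12 h, 1 library each. Fn1-203 makes up most of the 4 h and 12 h bars, and the extra domain A share is 40.3% at 0 h, 12.2% at 4 h and 15.5% at 12 h.

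Of the 11 laminin genes 9 reached 1 FPKM, and 1 of them, Lama4, was called in a comparison. Lama1 codes for the alpha chain of the laminin of early embryos and of the follicle's sheet. It was at 37.8, 50.8 and 49.1 FPKM at 0, 4 and 12 h, with the bounds at 0 h below the others. Lama4, whose chain is known from vessel walls, muscle and nerve, was at 18.5 FPKM at 0 h (17.0 to 19.95), 9.51 at 4 h (8.07 to 10.9) and 6.70 at 12 h (5.38 to 8.02). Its bounds lay apart between 0 h and each later time. The log2 fold was -0.89 at 4 h over 0 h and -1.34 at 12 h over 0 h, where it ranked 175 from the bottom of all genes measured. Lama1 held 60.9%, 74.3% and 78.4% of the summed alpha chain FPKM, and Lama4 held 29.8%, 13.9% and 10.7%. Lama2 and Lama5, the alpha chains of muscle and of mature epithelia, were between 2.46 and 4.30 FPKM in every library, and Lama3, the skin alpha chain, was under 1 FPKM.

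Among the beta chains Lamb1, the common form, was at 38.5, 52.2 and 57.0 FPKM, and Lamb2, known from the glomerulus and the nerve-muscle junction, was at 53.6, 70.5 and 45.4 FPKM. Lamb2 was the higher of the pair at 0 h and 4 h, and Lamb1 at 12 h, with the ratio of Lamb1 to Lamb2 at 0.718, 0.740 and 1.26. The bounds of the genes did not overlap in any library. Lamc1, the gamma chain of most laminins, was at 26.6, 44.6 and 25.8 FPKM, highest at 4 h with bounds apart from both other libraries. It held 84.3%, 88.6% and 86.7% of the gamma chain FPKM. Lamc3 was between 2.88 and 4.57 FPKM. Lamb3, which pairs with Lama3 in skin laminin, had 0.0592 FPKM at 0 h, was listed at 0 at 4 h and had 0.0450 FPKM at 12 h.

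**Figure D4:**
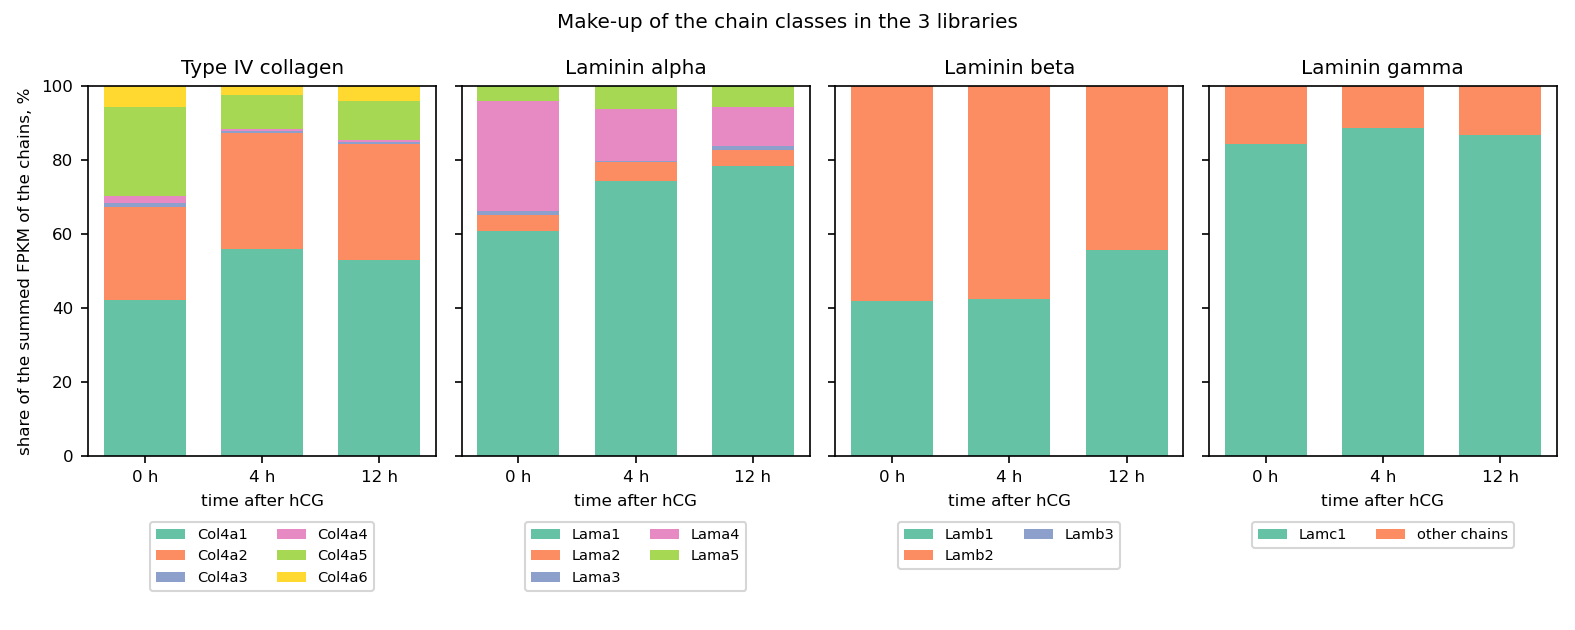
Share of the summed FPKM of type IV collagen chains and of laminin alpha, beta and gamma chains held by each gene at 0 h, 4 h and 12 h, 1 library each; gamma chains other than Lamc1 are drawn as 1 bar. Col4a1 with Col4a2, and Lama1, take larger shares at 4 h and 12 h than at 0 h, Lamb1 passes Lamb2 at 12 h, and Lamc1 holds 84.3% to 88.6% of the gamma chains.

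The type I collagen genes were close to level. Col1a1 was at 64.0, 71.2 and 81.1 FPKM at 0, 4 and 12 h and its partner Col1a2 at 77.0, 76.0 and 86.5, with log2 folds at 4 h over 0 h of 0.15 and -0.019. The ratio of Col1a1 to Col1a2 was 0.831, 0.937 and 0.938. Col3a1, the fine-fibril collagen of soft organs, was at 57.7, 94.7 and 103 FPKM, with bounds at 0 h below the others and a log2 fold of 0.82 at 12 h over 0 h.

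Type V and type XI collagens sit inside fibrils and set their width. Col5a1 was at 7.77, 15.1 and 15.7 FPKM and Col5a2 at 7.93, 16.8 and 12.1, with bounds at 0 h below those of the later libraries for both. The log2 fold of Col5a2 at 4 h over 0 h was 0.999, just under the threshold, and that of Col5a1 was 0.88. Col11a1 was at 15.8, 19.1 and 25.9 FPKM, with bounds apart at each step, whereas its usual partner Col11a2 was at 0.347, 1.60 and 0.415. Col27a1, a fibrillar collagen of cartilage, was at 11.7, 11.6 and 12.6 FPKM with overlapping bounds.

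Col24a1, a minor fibrillar collagen known from developing bone and cornea, was at 0.368 FPKM at 0 h (0.174 to 0.562), 14.0 at 4 h (12.8 to 15.1) and 0.210 at 12 h (0.0610 to 0.359). The 4 h library was high, and the bounds of the other libraries overlapped each other. The log2 fold was 3.45 at 4 h over 0 h and -3.63 at 12 h over 4 h. These values ranked 163 from the top and 108 from the bottom of all genes measured in those comparisons. Col24a1 was the 1 member both higher at 4 h than 0 h and lower at 12 h than 4 h, and it kept both calls under the 9 other settings tried with a 2-fold threshold.

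Type VI collagen forms beaded filaments next to basement membranes. Col6a1 was at 65.9, 70.5 and 69.6 FPKM at 0, 4 and 12 h, Col6a2 at 35.9, 43.8 and 36.6, and Col6a3 at 9.18, 8.86 and 10.3. These 3 chains assemble together, and their log2 folds against 0 h lay between -0.045 and 0.28. Col6a4, a further type VI chain gene, was at 2.198, 2.95 and 0.795 FPKM and was lower at 12 h than at 4 h (log2 fold -1.14). That call was lost on the equal-sum scale, when only protein-coding genes were summed, and with a pseudocount or a filter of 5 FPKM. Its 12 h level was 0.362 times its 0 h level, with bounds apart. The log2 fold of that difference was -0.83 with the pseudocount and was not called.

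FACIT collagens coat fibrils and do not form them. Col9a2 was at 34.9 FPKM at 0 h (31.8 to 37.9), 61.5 at 4 h (57.5 to 65.6) and 85.6 at 12 h (80.8 to 90.4), and its log2 fold at 12 h over 0 h was 1.27. Its level was higher in each later library with bounds apart at each step. In cartilage the Col9a2 chain joins those of Col9a1 and Col9a3. Here Col9a1 had 0.104 FPKM at 0 h and was listed at 0 in both later libraries, and Col9a3 was between 0.398 and 0.854 FPKM. Col16a1 was at 10.6, 12.8 and 8.64 FPKM. Col12a1, known from tendon and other dense tissue, was at 0.904, 3.29 and 2.72 FPKM and was called higher at 4 h than 0 h (log2 fold 1.17). The call of Col12a1 was lost on the equal-sum scale and with a pseudocount or a filter of 5 FPKM.

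Among the members with a highest level between 1 and 5 FPKM, 12 in all, Col12a1, Col6a4 and Col10a1 were called in a comparison. Col10a1, a chain of hypertrophic cartilage, was at 0.179, 0.626 and 2.35 FPKM, with bounds of 1.27 to 3.43 at 12 h. Its log2 fold was 1.51 at 12 h over 0 h. Its calls were lost with a pseudocount of 5 FPKM, where that fold was 0.50, and with a filter of 5 FPKM. The remaining 19 members were under 1 FPKM in every library, among them the transmembrane collagens Col13a1, Col17a1, Col23a1 and Col25a1 and the cartilage collagen Col2a1. No member was listed at 0 in all libraries.

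Genes that make and process collagen were counted in the same way from a list of 32. Of 29 measured at 4 h against 0 h, 5 were higher, against 10.2% of all genes, and 2 lower, against 7.03% (median log2 fold 0.15). The protease Tll1, which trims procollagen and activates the crosslinking enzyme, was at 0.490, 17.2 and 0.525 FPKM at 0, 4 and 12 h (log2 fold 3.61 at 4 h over 0 h). Lox, the crosslinking lysyl oxidase, was at 6.62, 22.1 and 17.3 FPKM. Colgalt2, which adds galactose to collagen, was at 29.0, 4.74 and 7.92 FPKM (log2 fold -2.39 at 4 h over 0 h). P4ha2, a proline hydroxylase subunit, was at 17.3, 9.87 and 27.7 FPKM and was higher at 12 h than 4 h (1.40). Of 27 genes measured at 12 h against 0 h, 4 were higher, against 3.16% of all genes, and 3 lower, against 2.55%. Of 28 at 12 h against 4 h, 1 was higher, against 4.83%, and 3 lower, against 7.88%. Tll1 and Col24a1 were both high at 4 h alone.

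Of 14 measured receptors for collagen, laminin and fibronectin, 6 had a higher call at 4 h over 0 h, against 10.2% of all genes, and none a lower one, against 7.03% (median log2 fold 0.84). Itga2, the alpha subunit of a collagen receptor, was at 6.29, 115 and 12.0 FPKM (log2 fold 4.00 at 4 h over 0 h). The fibronectin receptor subunit Itga5 was at 14.5, 74.3 and 26.8 FPKM, the laminin receptor subunit Itga3 at 12.0, 47.4 and 14.0, and Itgav at 71.5, 187 and 73.4. All 4 were lower at 12 h against 4 h and within 2-fold between 12 h and 0 h. Of 14 measured, 4 were lower at 12 h against 4 h, where 7.88% of all genes were, and none was higher, where 4.83% were. At 12 h against 0 h 1 was higher, where 3.16% of all genes were, and none was lower, where 2.55% were.

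A list of 33 other proteins of basement membranes and the matrix beside them had 30 measured genes, of which 5 had a higher call at 4 h over 0 h, against 10.2% of all genes, and none a lower one, against 7.03% (median log2 fold 0.36). Tinagl1, a basement membrane protein, was at 9.84, 45.5 and 34.9 FPKM, and was higher at both later times than at 0 h (log2 fold 1.73 at 12 h over 0 h). The netrin Ntn4, which binds laminin, was at 9.60, 15.1 and 24.8 FPKM (1.28 at 12 h over 0 h). Tenascin Tnc was at 5.56, 17.4 and 10.2 FPKM, and thrombospondin Thbs1 at 189.6, 422 and 322. None of the 30 was higher and 1 was lower at 12 h against 4 h, beside 4.83% and 7.88% of all genes. At 12 h against 0 h 2 were higher and 1 was lower, beside 3.16% and 2.55% of all genes.

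Other cells of the follicle wall make many of these proteins, and a change in their number cannot be told from a change in RNA per cell in bulk samples. The granulosa label was checked against 12 markers, all of which were above 1 FPKM in each library, with Inha at 6986, 7163 and 3742 FPKM. Their sum, most of it Inha, was 11948, 9218 and 6215 FPKM at 0, 4 and 12 h. At 4 h against 0 h 5 of the 12 were lower, against 7.03% of all genes, and none was higher, against 10.2%. The 5 were Inhbb (1354, 27.0 and 542 FPKM), Hsd17b1 (1065, 151 and 445) and Cyp19a1 (198, 30.0 and 105), with Foxl2 (149, 44.3 and 102) and Fshr (133, 15.5 and 32.1). The 10 endothelial markers summed to 25.9, 63.1 and 24.5 FPKM, and each of the 10 had a higher level at 4 h than at 0 h. By the 2-fold rule 4 of them were called higher at 4 h against 0 h, against 10.2% of all genes. At 12 h against 4 h 5 were called lower, against 7.88% of all genes. Cdh5, which defines endothelium, was at 5.59, 10.9 and 5.98 FPKM. The part of endothelial cells in the values of Col4a1, Col4a2, Col18a1, Hspg2 and Lamc1 was not tested.

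Of 12 theca and stroma markers 11 passed the filter, and the list had a sum of 272, 594 and 368 FPKM at 0, 4 and 12 h. Most of that difference was in Mgp, at 70.9, 371 and 191 FPKM, the 1 marker called higher at 4 h. Cyp17a1, the defining theca enzyme, was at 93.6, 114 and 59.0 FPKM, Dcn at 31.6, 39.2 and 45.5, and Hsd17b6 was listed at 0. The 10 smooth muscle and pericyte markers summed to 132, 201 and 193 FPKM, with Tagln higher at 4 h. The part of these cells in the levels of Col1a1, Col1a2, Col3a1 and the type VI genes was not tested. Of 11 leukocyte markers 8 passed the filter and 4 were higher at 4 h (sums 58.9, 112 and 94.5 FPKM, with Ptprc, Cd3e and Cd79a under 1 FPKM throughout), and of 8 surface epithelium markers 4 were higher and 1 lower (sums 472, 274 and 192). The fall in that sum was in Aldh1a1, at 412, 128 and 101 FPKM. The other 7 surface epithelium markers summed to 60.4, 146 and 91.1 FPKM, each with a higher level at 4 h than at 0 h. None of the oocyte markers was called at 4 h against 0 h (sums 214, 166 and 297 FPKM). Of all genes 10.2% were higher and 7.03% lower in that comparison, the shares to set beside each marker count given here.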

How the data were processed

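The deposited values are FPKM of RefSeq isoforms with a lower and an upper bound, per the file headers. The submitters' processing notes list CASAVA 1.8, TopHat2 2.1.1, Cufflinks 2.2.1 and mm10, with no order of steps. The level of the bounds is not stated. Isoforms (34362 of 34535) were matched to gene symbols of GRCm38.p6 (34165) or GENCODE vM21 (197) and summed to 24225 genes; 173 were left out. For genes with several isoforms, the distances from FPKM to bound were added in quadrature, as if isoform estimates were independent. None of the 12 estimates marked as failed belongs to the family. Antisense and overlapping genes are uncertain, as no source used here states the strandedness.

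Depth, read from the spacing of low FPKM of genes with 1 isoform, was about 13400000, 11900000 and 11600000 fragments at 0, 4 and 12 h. Of values under 10 fragments, 70.9%, 70.0% and 71.8% then lay within 0.1 of a whole number (20% by chance), and 1 fragment of a 2 kb transcript gave 0.0419, 0.0467 and 0.0479 FPKM. Summed FPKM over genes were 501561, 621365 and 472904. With 1 library per time no p-value was computed. A call needed a fold of 2 on the log2(FPKM + 1) scale and at least 1 FPKM. Named are members with at least 5 FPKM in 1 library, called members, and the 4 genes of each further list with the largest fold. The members and lists were chosen with earlier results of these data known; the cAMP response element was added after values were seen, as were the examples among markers, and no protein sequence was used. 1 member is counted but not reported by name here. Python 3.11.15 and pandas 2.3.3 were used.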

Additional observations from a re-analysis of the deposited data

How the results depend on the processing

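With 1 library per time no spread between mice can be given, and low members rest on few fragments. No paired analysis was possible because each time has 1 library. The settings varied were the pseudocount (0.1 or 5 FPKM), the filter (none or 5 FPKM), median-of-ratios scaling, scaling to the mean of the library sums or of the protein-coding sums, the main isoform, a fold of 1.5, and bounds that do not overlap. The percentage after each count is the share of all genes called in that direction under the same setting. Counts within 1.5-fold of the main count and medians that moved by less than 0.1 are not all listed. At 4 h against 0 h the 7 members higher (10.2%) became 4 with a pseudocount of 5 FPKM (5.9%), 4 with the mean of the library sums (7.6%) and 18 at 1.5-fold (19.1%). They became 10 with a pseudocount of 0.1 FPKM (13%), 6 with a filter of 5 FPKM (10.3%) and 5 with protein-coding sums (8.18%). The 0 lower (7.03%) became 1 with a pseudocount of 0.1 FPKM (10.7%) and with library or protein-coding sums (13.1% and 11.1%), and 2 at 1.5-fold (18.7%). The median of 0.43 became 0.31 with a pseudocount of 5 FPKM, 0.28 without a filter, and 0.13 and 0.21 with library and protein-coding sums. At 12 h against 4 h the 1 member higher (4.83%) became 0 with a pseudocount of 5 FPKM (1.17%) or a filter of 5 FPKM (4.53%). The 2 lower (7.88%) became 1 under these (4.67% and 8.2%) and with library or protein-coding sums (5.23% and 5.92%), and 8 at 1.5-fold (16.0%). The median of -0.20 became -0.070 without a filter, -0.057 with a filter of 5 FPKM, and reversed to 0.14 and 0.050 with library and protein-coding sums. The shift of all genes, to 0.37 and 0.27 on these scales, is part of that construction. At 12 h against 0 h the 5 members higher (3.16%) became 3 with a pseudocount of 5 FPKM (1.27%) and 13 at 1.5-fold (8.79%). They became 7 with a pseudocount of 0.1 FPKM (5.6%) and with library sums (3.85%). With protein-coding sums they became 6 (3.6%), and with a filter of 5 FPKM 4 (2.87%). The 1 lower (2.55%) became 2 with a pseudocount of 0.1 FPKM (4.02%) and 3 at 1.5-fold (6.7%), and the median of 0.35 became 0.19 with a pseudocount of 5 FPKM and 0.10 without a filter. The calls of Col4a1 and Col4a2 (4 h and 12 h over 0 h), Col18a1 (4 h over 0 h), Col24a1 (4 h over 0 h and 12 h over 4 h), Col9a2 and Lama4 (12 h over 0 h) were kept under all 9 settings at 2-fold.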

Other observations

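Genes of collagen breakdown and its inhibitors, a list of 17, had 11 measured genes, of which 4 had a higher call at 4 h over 0 h, against 10.2% of all genes, and none a lower one, against 7.03% (median log2 fold 0.33). The inhibitor of matrix metalloproteinases Timp1 was at 34.6, 521 and 191 FPKM at 0, 4 and 12 h, the matrix protease Adamts1 at 28.5, 112 and 119.8, and the metalloproteinase Mmp19 at 1.32, 7.004 and 10.53. Timp1 was highest at 4 h, whereas Adamts1 and Mmp19 were as high or higher at 12 h. Mmp11 was at 87.9, 111 and 229.5 FPKM and was higher at 12 h than at 0 h (log2 fold 1.37). The collagenase genes Mmp1a, Mmp8 and Mmp13 were under 1 FPKM in all 3 libraries, and the membrane-bound Mmp14, which also cuts fibrillar collagen, was at 44.0, 42.2 and 48.0 FPKM. At 12 h against 0 h 4 genes were higher and none lower, beside 3.16% and 2.55% of all genes. Of the 11 genes 1 was higher and 2 were lower at 12 h against 4 h, beside 4.83% and 7.88%.

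Values of some members that lie next to each other in the genome are set side by side here. Col3a1 and Col5a2 lie 24624 bases apart on chromosome 1, and their log2 folds at 4 h over 0 h were 0.70 and 0.999, and at 12 h over 0 h 0.82 and 0.55. Col6a1 and Col6a2, 85161 bases apart on chromosome 10, were nearly level together. Col4a3 and Col4a4, whose annotated gene bodies overlap by 114 bases, had log2 folds of -0.037 and 0.047 at 4 h over 0 h.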
